A study of Homo sapiens with 3 samples.

Results

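Small nucleolar RNA (snoRNA) host genes are genes whose introns carry snoRNAs. The 29 genes described here were chosen by name in GENCODE release 29, as every gene called SNHG with a number and also GAS5, ZFAS1, DANCR and EPB41L4A-AS1, out of 58735 genes in the files. The 29 identifiers carry 28 symbols, since 2 neighbouring identifiers are both called SNHG28. The 3 RNA-seq libraries were compared, all from KG1a by their labels, which is a human acute myeloid leukaemia line. In 1 control library, labelled wild type, cells had been infected with a lentivirus carrying a control short hairpin (shCtrl). In 2 libraries, labelled TRAF7 knockdown, they had been infected with a lentivirus carrying a hairpin against TRAF7 (shTRAF7), a gene for a RING-type ubiquitin ligase. The labels do not say whether the 2 knockdown libraries are separate cultures, carry the same hairpin or how long after infection they were made, so the p-values rest on a spread that could be purely technical.

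When a host transcript is spliced, exonucleases trim the freed intron down to the snoRNA, which proteins protect. Box C/D snoRNAs guide ribose methylation of ribosomal RNA and box H/ACA snoRNAs guide its pseudouridylation, while small Cajal body RNAs (scaRNAs) guide the same changes in spliceosomal RNA. The spliced exons of most SNHG genes code for no conserved protein. Several such transcripts, GAS5 being the textbook case, are read by ribosomes, stop early and are removed by nonsense-mediated decay, and several begin with the pyrimidine tract of ribosomal protein mRNAs.

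The snoRNAs are what these genes are named for, so a few are shown first. Those printed are the snoRNAs with the most reads among tested hosts, leaving out 2 close relatives of those shown, together with those of DANCR and SNHG19. They are the GENCODE release 29 transcripts on GRCh38, 5′ to 3′. Capitals mark the C box (TGATGA) near the 5′ end and the D box (CTGA) near the 3′ end of box C/D snoRNAs, or the ACA box at the 3′ end of box H/ACA snoRNAs.
SNORD12B: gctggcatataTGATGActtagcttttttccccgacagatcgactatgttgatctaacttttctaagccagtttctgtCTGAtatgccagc
SNORD104: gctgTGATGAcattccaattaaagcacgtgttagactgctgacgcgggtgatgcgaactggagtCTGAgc
SNORD60: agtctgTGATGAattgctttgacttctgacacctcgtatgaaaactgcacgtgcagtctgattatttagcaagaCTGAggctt
SNORA73B: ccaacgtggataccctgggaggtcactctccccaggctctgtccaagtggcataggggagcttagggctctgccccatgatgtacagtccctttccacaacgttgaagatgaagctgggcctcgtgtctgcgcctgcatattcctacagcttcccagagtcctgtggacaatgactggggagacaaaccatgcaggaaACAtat
SNORA71C: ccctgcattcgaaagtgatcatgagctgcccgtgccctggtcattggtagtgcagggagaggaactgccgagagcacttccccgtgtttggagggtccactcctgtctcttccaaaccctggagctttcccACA
SNORA26: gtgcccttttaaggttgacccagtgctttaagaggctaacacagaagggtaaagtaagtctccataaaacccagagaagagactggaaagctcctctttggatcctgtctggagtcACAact
SNORD12B lies in ZFAS1 (chr20:49280319-49280409, plus strand), SNORD104 in SNHG25 (chr17:64146083-64146152, plus) and SNORD60 in SNHG19 (chr16:2155023-2155105, minus). SNORA73B lies in SNHG3 (chr1:28508559-28508762, plus), SNORA71C in SNHG17 (chr20:38429670-38429803, minus) and SNORA26 in DANCR (chr4:52713249-52713370, plus).

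The start of the host transcript was also examined, because the rule that chose the genes did not use it. The table of RefSeq promoters (GRCh38.p14) held 19 of the 23 hosts that passed the filter on low values. In 13 of the 19 (68.4%) a run of at least 5 pyrimidines (C or T, on the gene's strand) began within 5 bases of the start or spanned it. The same run was found in 62 of 85 ribosomal protein genes (72.9%) and in 26.0% of 35116 promoters. The median longest run was 6 bases in the hosts, 10 in ribosomal protein genes and 3 in all promoters. The windows below hold 10 bases before the annotated start and 20 from it onward, with the longest such run in capitals, for hosts with and without one.
SNHG19: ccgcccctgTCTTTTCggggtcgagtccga
SNHG5: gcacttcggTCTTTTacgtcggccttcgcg
ZFAS1: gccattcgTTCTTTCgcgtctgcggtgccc
SNHG4: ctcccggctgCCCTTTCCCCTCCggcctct
SNHG16: gggcggtctcgcgTTCTTTTCgaggtcggc
SNHG1: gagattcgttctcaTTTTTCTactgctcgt
DANCR: tgcgcgccccgCCCTTgcccagagtcttcc
GAS5: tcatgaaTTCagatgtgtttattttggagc
EPB41L4A-AS1: tcatgaaTTCTgtcgggtcccaaaatacgt
SNHG19, SNHG5, ZFAS1 and SNHG16 share the letters TCTTT within the run, and SNHG4 has the longest run shown, at 13 bases. GAS5 and EPB41L4A-AS1 have runs of 3 and 4 bases at the RefSeq start, and the RefSeq start of GAS5 (position 173869045 on chromosome 1) is not that of GENCODE release 29 (173868882). The RefSeq and GENCODE starts also differ for most of the 19 hosts. Among them are SNHG1, SNHG5, DANCR and ZFAS1 (49278642 against 49278178 on chromosome 20). Runs were sought at the RefSeq starts only. The letters CACGTG, the E-box bound by MYC and related factors and the same on both strands, were in 1 of the 19 host promoters (5.26%; SNHG7, named after its values were seen) and in 7.26% of all promoters of 300 bases. A match of letters is a description and not a site of binding.

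The control library held TRAF7 at 46.5 FPKM (reads scaled by exon length and by a divisor for each library), and the knockdown libraries at 15.6 and 18.3 FPKM, which is 33.6% and 39.4% of the control. Reads assigned to genes ranged from 16014485 to 16254461 per library. The labelled cell type was checked against markers of the line: CD34 had 0, 1 and 10 reads in control, knockdown 1 and knockdown 2, and CD44 had 0, 2 and 7, so these 2 defining markers were at or near 0, whereas PTPRC (9.54, 5.60 and 6.53 FPKM), SPN (46.2, 45.3 and 32.9) and CD33 (5.37, 2.66 and 5.48) passed the filter. ANPEP, the other of the 6 markers, was at 0.486, 0.198 and 0.278 FPKM, and the 6 summed to 61.6, 53.8 and 45.3 FPKM. Of 8 erythroid genes 7 passed the filter (all but HBB), and all 8 summed to 154.0, 292.9 and 258.9 FPKM. Of 6 epithelial and stromal genes 3 passed (EPCAM, KRT8 and KRT18), and all 6 summed to 131.6, 162.2 and 144.7 FPKM. Of 6 lymphoid genes 2 passed, MS4A1 had 0 reads in every library, and all 6 summed to 9.55, 6.20 and 8.45 FPKM. Genes annotated as lying inside introns on the sense strand held 0.0553%, 0.0448% and 0.0476% of reads. The part of these differences in the results below was not tested.

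Of the 29 host genes, 23 averaged 1 FPKM or more across libraries and were tested; SNHG26 was just inside at a mean of 1.68 and SNHG14 next outside at 0.0124. Of the 6 others, 4 had 0 reads in every library (SNHG18, SNHG27 and both SNHG28 identifiers), SNHG22 had 1 read in knockdown 2, and SNHG14, the long host of the SNORD116 cluster on chromosome 15, had 8, 11 and 7 reads. For a count of 0 the floor used is 3 reads per library, which is lower than the upper end of the exact 95% intervals given for levels. Together the 29 genes took 0.273% of the control's assigned reads (exact 95% binomial interval 0.270 to 0.275). Their share was 0.291% (0.288 to 0.293) of knockdown 1 and 0.279% (0.277 to 0.282) of knockdown 2. The intervals cover counting error only. The host genes thus took a larger share of reads in both knockdown libraries, and most in knockdown 1. By the mean over the 3 libraries, SNHG5, SNHG19, SNHG1 and DANCR had the highest levels and SNHG26 the lowest of the 23 (plot of levels by library). The order differed by library: in the control SNHG8 was above DANCR and SNHG25 below SNHG26.

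**Figure D1:**
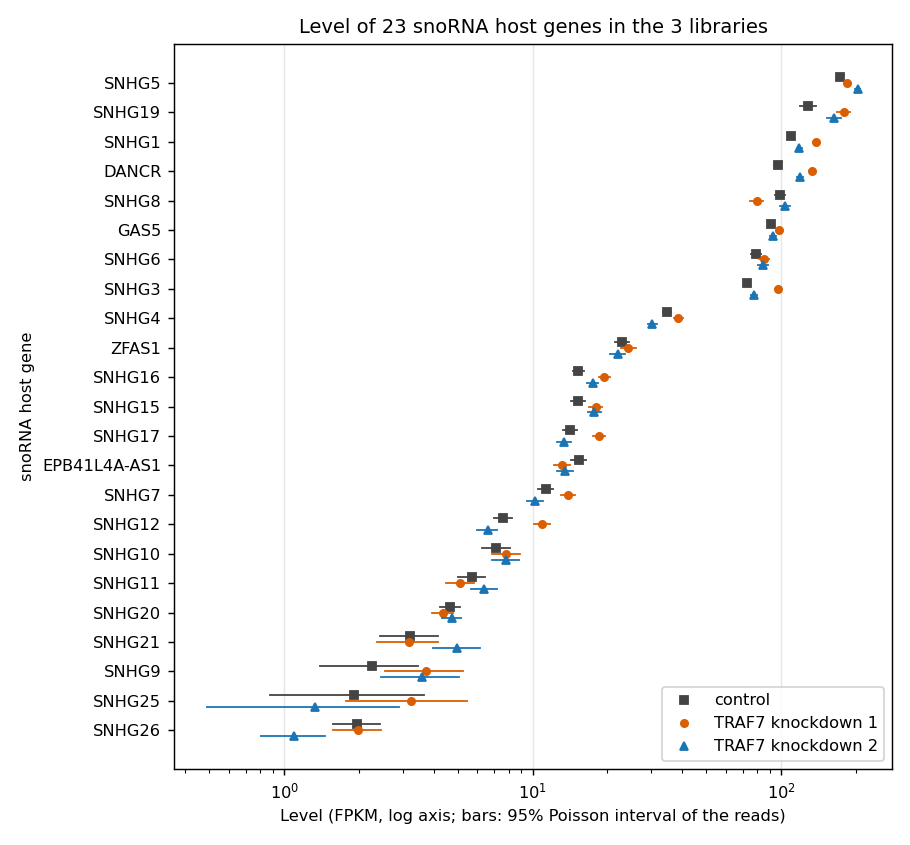
Level of the 23 tested snoRNA host genes (rows) in FPKM on a log axis, in the control library (squares), TRAF7 knockdown 1 (circles) and TRAF7 knockdown 2 (triangles), with 95% Poisson intervals of the reads. Levels run from 1.10 FPKM (SNHG26, knockdown 2) to 203.4 FPKM (SNHG5, knockdown 2), and the 3 libraries lie close together for most genes.

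By limma on log2(FPKM + 1), 0 of the 23 host genes passed an adjusted p of 0.05, and 0 of 12640 genes did so (0%). At an unadjusted p under 0.05 there were 2 hosts, SNHG19 and SNHG9, and 1161 genes (9.19%). By limma-voom, run on the recovered read numbers, 0 of 22 hosts passed, beside 130 of 15034 genes (0.865%), and 0 hosts had an unadjusted p under 0.05 (all genes, 12.1%). The 2 knockdown libraries were both above the control for 11 hosts (47.8%; all genes, 42.5%) and both below it for 1 host (4.35%; all genes, 30.8%). For the other 11 hosts (47.8%; all genes, 26.7%) they lay on opposite sides of it. The median fitted difference of the hosts was 0.12 on the log2 scale, beside 0.04 for all genes tested. The 2 groups of genes stood closer at like levels: of 15 hosts averaging 10 FPKM or more, 60% were higher in both libraries and the median was 0.15, and of all 4538 such genes 61.1% were higher and the median was 0.15. Lower in both were 6.67% of these hosts and 17% of these genes, and on opposite sides 33.3% and 21.9%. At a mean of 5 FPKM or more, 10 of 18 hosts were higher in both (all genes, 53.5%) and 1 lower (all genes, 22.4%). Scaled to all assigned reads, 7 of 23 hosts were higher in both (all genes, 29.8%) and 6 lower (all genes, 43.7%). By quantile normalization the counts were also 7 (all genes, 38.6%) and 6 (all genes, 33.8%).

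**Figure D2:**
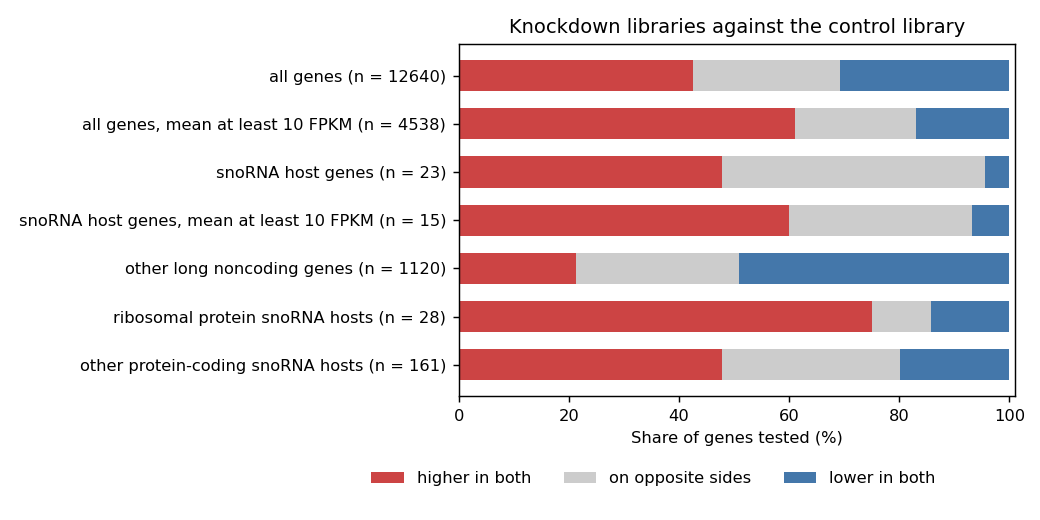
Share of tested genes (percent, horizontal axis) that were higher in both knockdown libraries, on opposite sides of the control, or lower in both, for all genes, snoRNA host genes and other groups (rows, n in brackets). Of the 23 snoRNA host genes 47.8% were higher in both, beside 42.5% of all genes and 21.3% of other long noncoding genes. By quantile normalization, not drawn, these shares were 30.4%, 38.6% and 26%, and scaled to all assigned reads 30.4%, 29.8% and 14.6%. The other long noncoding genes were not matched to the hosts for level.

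SNHG19 and DANCR had the lowest p among the 15 abundant hosts. SNHG19 (ENSG00000260260, chr16:2154797-2155358, minus strand), the host of SNORD60, had levels of 128.2, 178.7 and 163.6 FPKM (given here and below as control, then knockdown 1, then knockdown 2). Both knockdown libraries were above the control by more than counting error, at 1.39 times (95% interval 1.27 to 1.54) and 1.28 times (1.16 to 1.41) its level. The fitted difference was 0.41 ± 0.14 (SE; limma adjusted p = 0.498, and 0.330 to 0.685 over the alternatives). DANCR (ENSG00000226950, chr4:52712404-52720351, plus strand), a transcript named for holding back differentiation of progenitor cells, was at 97.0, 132.9 and 119.2 FPKM. Its knockdown libraries were 1.37 times (1.31 to 1.43) and 1.23 times (1.18 to 1.28) the control, with a fitted difference of 0.37 ± 0.15 (SE; limma adjusted p = 0.550, and 0.394 to 0.773 over the alternatives). Both genes were also above the control in each knockdown library when scaled to all assigned reads and by quantile normalization, though the latter gave smaller differences, 0.18 for SNHG19 and 0.11 for DANCR.

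SNHG19 is the head-to-head neighbour of the targeted gene: its start (2155358) and that of TRAF7 (2155698) lie 340 bases apart on chromosome 16 and point away from each other. The 2 genes went opposite ways, TRAF7, the target, being lower and SNHG19 higher in both knockdown libraries. Of all genes tested 42.5% were higher in both, and of those averaging 10 FPKM or more 61.1%. The RefSeq window of SNHG19 (GRCh38.p14, chr16:2155309-2155608, minus strand) covers most of the stretch between the 2 starts and is printed because it faces the knocked-down gene, with the 50 bases from the SNHG19 start onward in capitals.
SNHG19 promoter: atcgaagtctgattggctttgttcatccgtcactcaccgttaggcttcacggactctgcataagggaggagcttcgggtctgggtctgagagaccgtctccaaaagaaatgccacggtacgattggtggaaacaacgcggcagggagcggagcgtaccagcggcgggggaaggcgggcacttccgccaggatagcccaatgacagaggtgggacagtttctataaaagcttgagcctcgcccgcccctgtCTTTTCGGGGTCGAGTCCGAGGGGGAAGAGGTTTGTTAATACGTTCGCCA
Other tested hosts start within 1000 bases of a protein-coding gene on the opposite strand. SNHG1 lies 188 bases from SLC3A2, a subunit of amino acid transporters, at 125.2, 133.4 and 153.7 FPKM. SNHG9 lies 99 bases from RPS2, a ribosomal protein gene, at 1368, 1464 and 1496 FPKM. The starts of ZFAS1 and ZNFX1 (3.34, 3.83 and 2.72 FPKM) and those of GAS5 and ZBTB37 (1.40, 1.35 and 1.31 FPKM) overlap. Of these 5 neighbours TRAF7, which the hairpin targets, alone was at less than 0.5 times the control in a knockdown library.

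Among hosts of box C/D snoRNAs, SNHG5, SNHG1, GAS5, SNHG6, SNHG16 and SNHG19 were higher in both knockdown libraries (GAS5 is placed here from background knowledge). SNHG5 (chr6:85660950-85678748, minus), host of SNORD50B, was the most abundant at 172.7, 184.4 and 203.4 FPKM and was higher in knockdown 2 than in knockdown 1. SNHG1 (chr11:62851988-62855914, minus), which carries 7 annotated snoRNAs, was at 109.8, 138.1 and 118.5 FPKM. Its excess in knockdown 1 was 1.26 times (1.22 to 1.30) the control and in knockdown 2 it was 1.08 times (1.04 to 1.12). GAS5 (chr1:173863900-173868882, minus), named for its accumulation in growth-arrested cells, was at 90.7, 98.6 and 92.8 FPKM, and the interval of its knockdown 2 ratio, 0.986 to 1.06, spans 1. SNHG6 was at 79.2, 85.2 and 84.9 FPKM and SNHG16, host of the SNORD1 family, at 15.3, 19.4 and 17.5. ZFAS1, host of the SNORD12 family, was at 22.9, 24.3 and 22.0, with the knockdown libraries on either side of the control. The fitted log2 differences were 0.16 ± 0.14 (SE) for SNHG5, 0.22 ± 0.16 for SNHG1, 0.08 ± 0.15 for GAS5, 0.10 ± 0.15 for SNHG6, 0.26 ± 0.18 for SNHG16 and 0.01 ± 0.18 for ZFAS1, with limma adjusted p of 0.744, 0.712, 0.909, 0.866, 0.702 and 0.990. SNHG5, SNHG1, GAS5, SNHG6 and ZFAS1 changed sign by quantile normalization, and GAS5, SNHG6 and ZFAS1 when scaled to all assigned reads. Release 29 names box C/D but not box H/ACA snoRNAs in 7 tested hosts, of which 5 (71.4%) were above the control in both libraries and 0 below, at a median of 0.16. Of all genes tested 42.5% were above it in both, and of those averaging 10 FPKM or more 61.1%.

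Among hosts of box H/ACA snoRNAs, SNHG3 and SNHG15 were, like DANCR, higher in both knockdown libraries and EPB41L4A-AS1 lower in both. SNHG3 (chr1:28505980-28510892, plus), host of SNORA73A and SNORA73B, was at 73.1, 97.5 and 78.1 FPKM, so that knockdown 1 stood apart from the other 2 libraries. Its exons overlap those of RCC1 on the same strand, which encodes the exchange factor of the GTPase RAN. RCC1 was at 26.9, 54.5 and 41.8 FPKM and passed by limma-voom (adjusted p = 0.0366, against 0.443 by limma), and reads from shared exons cannot be split between the 2 genes with certainty. SNHG15, host of SNORA9, was at 15.3, 17.9 and 17.7 FPKM, with both knockdown libraries 1.17 (1.07 to 1.28) and 1.16 (1.06 to 1.27) times the control. EPB41L4A-AS1, host of SNORA13, was at 15.3, 13.2 and 13.5 FPKM, at 0.859 (0.776 to 0.951) and 0.882 (0.799 to 0.975) times the control. It is the only one of the 23 that was lower in both libraries on the deposited scale. Its exons overlap those of EPB41L4A on the opposite strand, and no source used here says whether counting used strand. The fitted log2 differences were 0.25 ± 0.19 (SE) for SNHG3, 0.21 ± 0.17 for SNHG15 and −0.19 ± 0.18 for EPB41L4A-AS1, with limma adjusted p of 0.713, 0.734 and 0.767.

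SNHG4, SNHG7, SNHG8 and SNHG17, all hosts of box H/ACA snoRNAs, were above the control in one knockdown library and below it in the other. SNHG8 (chr4:118278709-118279823, plus), host of SNORA24, was at 99.1, 79.7 and 103.8 FPKM, low in knockdown 1 alone. SNHG4, host of SNORA74A, was at 34.7, 38.7 and 30.3 FPKM, SNHG17, host of SNORA71 copies, at 14.1, 18.5 and 13.4, and SNHG7, host of SNORA17 copies, at 11.3, 13.8 and 10.2. In these 3 genes knockdown 1 was the highest library and knockdown 2 the lowest. Exons of SNHG4 overlap those of MATR3 on the same strand, so reads from shared exons cannot be split between them with certainty. Exons of 13 of the 23 tested hosts overlap another gene, not counting genes of small RNAs such as snoRNAs. Several of the remaining hosts, SNHG1, SNHG5 and SNHG8 among them, have an annotated snoRNA gene on an exon. The fitted log2 differences were −0.12 ± 0.20 (SE) for SNHG8, −0.02 ± 0.21 for SNHG4, 0.15 ± 0.24 for SNHG17 and 0.07 ± 0.23 for SNHG7, with limma adjusted p of 0.882, 0.984, 0.874 and 0.951. Release 29 names box H/ACA but not box C/D snoRNAs in 10 tested hosts, of which 4 (40%) were above the control in both libraries and 1 (10%) below, at a median of 0.11. Of all genes tested 42.5% were above it in both and 30.8% below. A difference between the classes of snoRNA was not tested.

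The 8 tested hosts averaging under 10 FPKM were measured less precisely. SNHG12, which carries both classes of snoRNA, was at 7.61, 10.9 and 6.59 FPKM, high in knockdown 1 alone. SNHG10, host of SCARNA13, was at 7.13, 7.80 and 7.81 FPKM and SNHG20, host of SCARNA16, at 4.66, 4.35 and 4.72, each within counting error of the control in both libraries. SNHG11 was at 5.68, 5.12 and 6.38 FPKM, and SNHG21, host of SCARNA15, at 3.21, 3.17 and 4.96. Exons of SNHG20 overlap those of SEC14L1 on the same strand, and exons of SNHG21 those of AC105339.2, so shared reads cannot be split with certainty. The levels of SNHG11, SNHG12, SNHG21 and SNHG26 differed between the knockdown libraries by more than counting error. SNHG26 was at 1.96, 1.98 and 1.10 FPKM, low in knockdown 2 alone. SNHG9, host of SNORA78, was at 2.26, 3.73 and 3.57 FPKM on 21, 32 and 32 reads, and SNHG25 at 1.92, 3.24 and 1.33 FPKM on 9, 14 and 6 reads. SNHG9 had an unadjusted limma p of 0.0359 (adjusted p = 0.524) and an unadjusted limma-voom p of 0.274, while the counting intervals of its ratios to the control, 0.924 to 3.02 and 0.885 to 2.89, span 1.

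**Figure D3:**
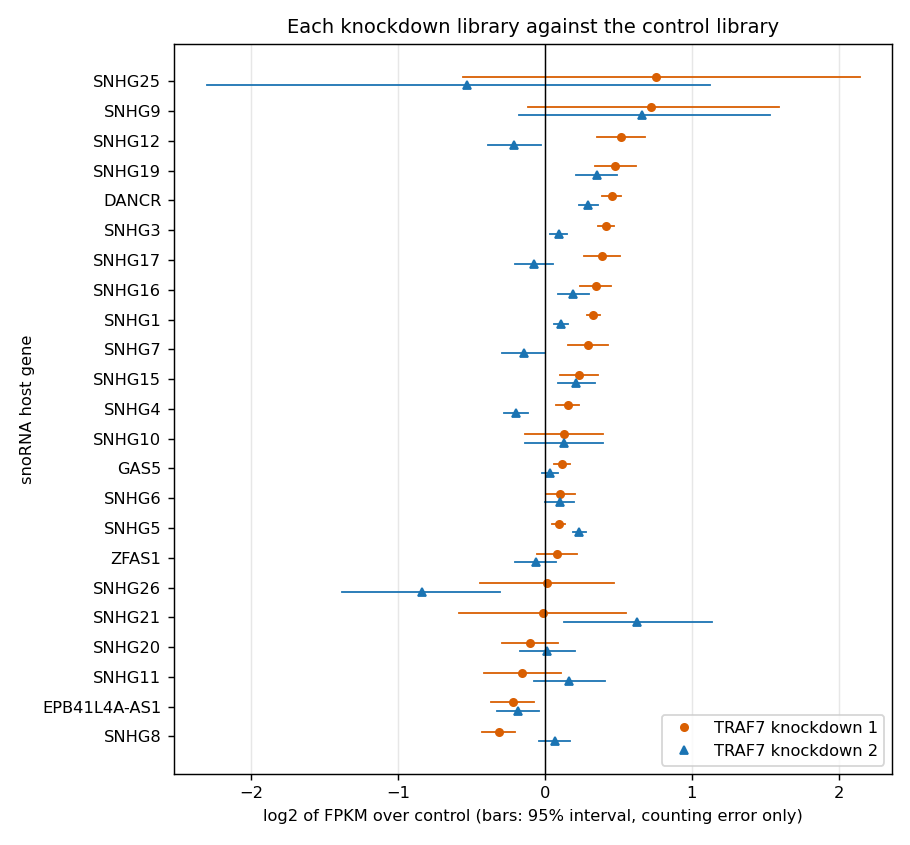
log2 of the FPKM in TRAF7 knockdown 1 (circles) and TRAF7 knockdown 2 (triangles) over the control for the 23 tested snoRNA host genes (rows), with exact 95% intervals that cover counting error only; the line at 0 is the control. SNHG19 and DANCR lie to the right in both libraries, EPB41L4A-AS1 to the left in both, and SNHG12 and SNHG17 on both sides.

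The knockdown libraries differed from each other in many of these genes. The counting interval of knockdown 1 over knockdown 2 excluded 1 for 15 of the 23 hosts, where it did so for 46.8% of all genes tested. Of all 23 hosts, 11 were higher in knockdown 1 by this interval (27.2% of all genes tested) and 4 in knockdown 2 (19.6% of all genes tested). SNHG26 and SNHG12 had the highest such ratios, 1.80 (1.24 to 2.64) and 1.65 (1.47 to 1.86), followed by SNHG17 at 1.38 (1.27 to 1.51), SNHG7 at 1.35 (1.22 to 1.49), SNHG4 at 1.28 (1.21 to 1.35) and SNHG3 at 1.25 (1.20 to 1.30). On the other side stood SNHG21 at 0.639 (0.444 to 0.913), SNHG8 at 0.768 (0.711 to 0.829), SNHG11 at 0.802 (0.670 to 0.957) and SNHG5 at 0.907 (0.880 to 0.934). Against the control, the interval lay above 1 for 13 hosts in knockdown 1 (all genes, 35.1%) and 9 in knockdown 2 (all genes, 28.4%), and below 1 for 2 (22.5%) and 4 (18.7%). It thus excluded 1 for 15 hosts in knockdown 1 (all genes, 57.5%) and 13 in knockdown 2 (all genes, 47.1%). With 1 library on each side these ratios compare libraries and not conditions. They also rest on the deposited scale, and their intervals leave out error in it. Such intervals narrow with more reads, and the shares of all genes were not matched to the hosts for level. Of the 23 hosts 15 averaged 10 FPKM or more, and of 12640 genes tested 4538 did.

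The snoRNAs themselves were barely sampled. Release 29 places 49 snoRNA or scaRNA genes inside 22 of the 23 tested hosts, on the same strand, and 0 inside GAS5. The 29 that overlap an annotated exon of their host had 0 reads in every library, and of the 20 that lie wholly in introns 18 had reads. No source used here says how reads shared by overlapping genes were assigned. The intronic ones held 311, 474 and 280 reads. Scaled by the divisors of the deposited FPKM, as RPM with 95% Poisson limits, that is 18.4 (16.4 to 20.6), 30.5 (27.8 to 33.3) and 17.2 (15.3 to 19.4). Knockdown 1 was thus the high library, as it was for all 992 snoRNA and scaRNA genes (78.5, 101.6 and 72.6 RPM). By gene, SNORA73B had 61, 94 and 74 reads, SNORA71C 50, 73 and 36, SNORD104 38, 79 and 38, SNORD12B 26, 56 and 25, SNORA71B 32, 30 and 26, and SNORD12C 22, 41 and 22. SNORA26 of DANCR had 10, 4 and 3 reads and SNORD60 of SNHG19 had 0, 2 and 0. These libraries follow long RNA, and reads on a snoRNA gene can also come from unspliced host transcript, so they do not measure mature snoRNA.

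Protein-coding genes also host snoRNAs. Of 28 tested ribosomal protein genes with a snoRNA gene inside them on the same strand, 21 (75%) were higher in both knockdown libraries and 4 (14.3%) lower, with a median of 0.09. Of all genes tested 42.5% were higher and 30.8% lower (median 0.04), and at 10 FPKM or more 61.1% and 17% (median 0.15). By quantile normalization 2 of the 28 were higher and 18 lower (median −0.0960), beside 38.6% and 33.8% of all genes. Scaled to all assigned reads there were 7 and 11 (median −0.0175), beside 29.8% and 43.7% of all genes. RPLP2 (531.6, 598.0 and 612.4 FPKM), RPS12 (1052, 1153 and 1175) and RPSA (410.2, 472.7 and 457.5) were among those with the lowest p, and 0 of the 28 passed by limma. Of 161 other protein-coding hosts tested, 77 (47.8%) were higher in both and 32 (19.9%) lower, with a median of 0.09, and 0 passed by limma. By quantile normalization there were 57 and 52 of them with a median of 0.00431, and scaled to all assigned reads 54 and 55 with a median of −0.0101. The lowest p belonged to PCNA, the sliding clamp of DNA replication, at 81.1, 143.9 and 125.3 FPKM, RANBP1, a regulator of RAN, at 120.8, 195.4 and 174.5, RCC1, and SOD1, superoxide dismutase, at 167.1, 244.5 and 227.1. Other long noncoding genes lay more often below the control than above it: of 1120 tested, 239 (21.3%) were above it in both libraries and 549 (49%) below it, at a median of −0.13. Scaled to all assigned reads the counts were 164 and 659 with a median of −0.205. By quantile normalization they were 291 (26%) and 496 with a median of −0.0835, where 30.4% of the SNHG and related hosts were higher in both. These genes were not matched to the hosts for level. From a list of 15 well-known noncoding RNAs, 8 were tested, with 2 higher in both and 5 lower, among them OIP5-AS1 (6.31, 4.69 and 5.88 FPKM), TUG1 (15.0, 13.2 and 12.9), NORAD (52.5, 42.4 and 50.7) and MALAT1 (52.7, 49.7 and 50.6).

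Genes for the proteins that bind and build snoRNA particles were mostly higher in both knockdown libraries, with 0 passing by limma or limma-voom. All 4 core proteins of box C/D particles were higher in both libraries, with a median of 0.38 (3 of 4 when scaled to all assigned reads and by quantile normalization, with medians of 0.28 and 0.17). FBL, the methyltransferase fibrillarin, was at 154.2, 225.1 and 212.4 FPKM (0.50 ± 0.13 SE; limma adjusted p = 0.443), SNU13, which binds the folded RNA, at 56.4, 78.1 and 70.1, NOP56 at 40.3, 60.3 and 46.2 and NOP58 at 43.2, 57.0 and 45.4. Of the 4 box H/ACA core proteins, 3 were above the control in both and 0 below, at a median of 0.39 (2 and 1 by quantile normalization, with a median of 0.17). NHP2 was at 37.9, 62.6 and 62.5 FPKM (0.71 ± 0.16 SE; limma adjusted p = 0.403), GAR1 at 29.9, 44.3 and 39.9, NOP10 at 117.3, 140.7 and 149.3, and DKC1, the pseudouridine synthase dyskerin, at 74.6, 87.9 and 74.4. Of 10 assembly factors, 9 were above the control in both and 0 below, at a median of 0.33 (8 and 1 by quantile normalization, with a median of 0.24). The helicase-like RUVBL2 was at 91.1, 130.6 and 130.3 FPKM, the zinc finger protein ZNHIT3 at 3.93, 5.58 and 5.50, NOLC1, a nucleolar and Cajal body protein, at 70.4, 109.1 and 85.7, and NUFIP1 at 2.02, 3.33 and 2.77. All genes averaging 10 FPKM or more had a median of 0.15 and 61.1% higher in both.

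**Figure D4:**
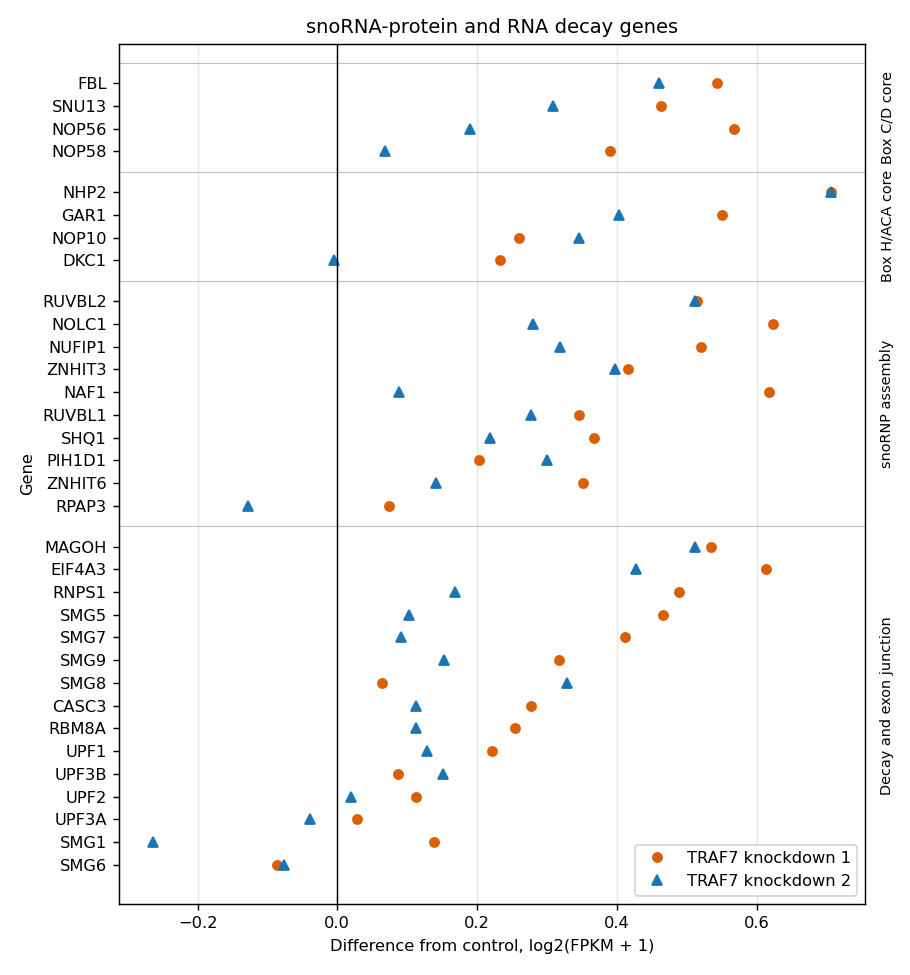
Difference from the control on the log2(FPKM + 1) scale in TRAF7 knockdown 1 (circles) and TRAF7 knockdown 2 (triangles) for the genes (rows) of box C/D and box H/ACA core proteins, snoRNA particle assembly factors, and decay and exon junction factors; the line at 0 is the control. FBL and NHP2 lie at the top of their groups, and SMG6 is below 0 in both libraries.

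Nonsense-mediated decay removes several host transcripts, so its factors were listed as well. Of 15 decay and exon junction genes, 12 (80%) were higher in both knockdown libraries and 1 (6.67%) lower, with a median of 0.20. Of all genes tested 42.5% were higher and 30.8% lower (median 0.04), and at 10 FPKM or more 61.1% and 17% (median 0.15). Scaled to all assigned reads the counts were 9 and 3 with a median of 0.0938, beside 29.8% and 43.7% of all genes. By quantile normalization they were 8 and 2 with a median of 0.0696, beside 38.6% and 33.8%. Of the 15 genes, 0 passed by limma or limma-voom. The exon junction genes MAGOH (34.2, 49.9 and 49.1 FPKM), EIF4A3 (22.6, 35.1 and 30.7) and RNPS1 (31.7, 44.8 and 35.7) had the lowest p, followed by SMG5 (37.5, 52.2 and 40.4). The nuclease SMG6 was below the control in both, at 2.79, 2.57 and 2.59. Of 8 protein-coding transcripts known as decay targets, 7 were tested, with 2 higher in both libraries, 0 lower and a median of 0.04. Scaled to all assigned reads, and also by quantile normalization, 2 were higher and 2 lower, with medians of −0.0457 and −0.0319. GADD45A, a growth arrest and DNA damage gene, was at 120.7, 164.6 and 147.4 FPKM and DDIT3, a stress transcription factor, at 23.6, 27.9 and 27.4. ATF3 was at 15.9, 13.7 and 16.4 and NAT9 at 16.8, 21.0 and 15.2, on opposite sides of the control.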

How the data were processed

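RNA of 1 control and 2 TRAF7 knockdown libraries was measured as FPKM, which the authors deposited with 1 value per Ensembl gene and library. Of upstream steps, the submitters' processing notes list Bowtie, BWA and hg19 without saying what each did, and no source used here names the counting tool. All 58735 identifiers matched GENCODE release 29 (GRCh38), from which symbols and coordinates come. FPKM multiplied by summed exon length came out, in each library, as whole steps of 1 read for 100% of nonzero values (tolerance 0.05), which gave the reads behind each value. The deposited FPKM rest on 1 divisor per library, 16884224 for the control, 15564009 for knockdown 1 and 16261681 for knockdown 2. For knockdown 1 it is below the assigned reads (16221721), so it is not a total of reads, and no source used here says how it was set. Scaling to assigned reads was therefore tried.

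Groups were compared on log2(FPKM + 1) by limma (3.58.1, R 4.3.3, trend over intensity, two-sided) in genes averaging 1 FPKM or more, with Benjamini-Hochberg adjustment over 12640 genes at 0.05. Fold changes on that scale understate the change of low genes. Only the 2 knockdown libraries give a spread (1 residual degree of freedom), which the single control is assumed to share. Levels and ratios carry exact 95% limits from the recovered reads, and 3 reads is the floor. These limits keep the deposited divisors and leave out error in them. Alternatives were pseudocounts of 0.1, 0.5 and 5, no filter, a stricter filter of 5 FPKM, scaling to all assigned reads, quantile normalization, no intensity trend, limma-voom on recovered reads (mean of at least 10), each knockdown library alone, and hosts without exon overlap. Overlap with genes of small RNAs, snoRNAs included, was not counted as exon overlap. Scripts were tested on simulated data, where limma on log2(FPKM + 1) called some unchanged genes and more of them than limma-voom did, so its p-values can be too small.

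The genes and lists were chosen with earlier results of these data known. All tested hosts are named. From each other list the 4 genes with the lowest p are named (1 is not reported here), and SMG6, neighbours of hosts, SNORA26 and SNORD60 were added after their values were seen.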

Additional observations from a re-analysis of the deposited data

How the results depend on the processing

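No snoRNA host gene passed an adjusted p of 0.05 in any setting tested, limma-voom included; all genes gave 3 calls at a mean of at least 5 FPKM and 130 by limma-voom. The median difference of the hosts was 0.12 as deposited (all genes, 0.04). It was 0.0328 when scaled to all assigned reads (all genes, −0.0478) and 0.00867 by quantile normalization (all genes, 0.0195). The hosts were thus above all genes in the former and below them in the latter. Both scalings gave 7 hosts higher in both libraries and 6 lower, against 11 and 1. The median was 0.16 without hosts whose exons overlap another gene (small RNA genes not counted), and 0.0936 to 0.153 with 1 knockdown library left out. With overlapping hosts left out there were 5 higher, 0 lower and 5 on opposite sides of 10, and at a mean of at least 5 FPKM 7 lay on opposite sides. Against knockdown 2 alone 15 hosts were higher than the control and 8 lower, and against knockdown 1 alone 18 and 5.

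In the 9 settings that keep every library, 190 values of single hosts had the direction of the deposited scale and 11 the opposite one. The filters and the intensity trend do not enter a fitted difference, so agreement in those settings was fixed in advance. The pseudocounts and limma-voom kept the deposited scale. All 11 opposite values came from scaling to all assigned reads or from quantile normalization. Scaled to all assigned reads, the difference was −0.0822 for SNHG11, −0.0908 for ZFAS1, −0.0285 for SNHG7, −0.0291 for GAS5 and −0.0031 for SNHG6. By quantile normalization it was −0.13 for ZFAS1, −0.0583 for SNHG5, −0.0067 for SNHG7, −0.19 for GAS5, −0.16 for SNHG6 and −0.0086 for SNHG1. The cause was not tested. With 1 knockdown library left out (a value with no test), 11 hosts changed sign, between −0.0589 and 0.0805 for ZFAS1, −0.0691 and 0.37 for SNHG17, −0.18 and 0.47 for SNHG12, −0.13 and 0.27 for SNHG7, −0.0818 and 0.0145 for SNHG20, −0.33 and 0.54 for SNHG25, −0.31 and 0.0656 for SNHG8, −0.13 and 0.14 for SNHG11, −0.50 and 0.00953 for SNHG26, −0.0114 and 0.50 for SNHG21, and −0.19 and 0.15 for SNHG4. No paired analysis was possible because the control has 1 library. Depth limits SNHG9, SNHG25, SNHG21 and SNHG26, with under 100 reads in each library.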
